A study of Homo sapiens with 6 samples.

Results

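The genes that drive cells through mitosis were followed in U87 cells exposed to rutaecarpine. They were chosen by gene name as 40 mitotic kinases, cyclins, phosphatases, checkpoint proteins, partners of the anaphase-promoting complex and the transcription factors that switch them on. All 40 were found among the 60671 genes of the expression table, and all 40 were among the 14377 genes with enough RNA to be tested. U87 is an established human glioblastoma cell line, and every library came from this 1 line. The 3 control libraries came from cells kept in serum-free medium with 0.1% DMSO, and the 3 rutaecarpine libraries from cells kept for 48 h in the same medium and solvent with 100 μM rutaecarpine, an alkaloid of Evodia rutaecarpa. The labels number the libraries of each group but do not say whether they came from separate cultures, so the p-values below measure the spread between these libraries, which may be technical. RNA levels are in TPM, transcripts per fixed library total, which scale the reads of a gene by its length to allow levels to be compared between genes. A trend on transcript length was still seen in control replicate 3 and rutaecarpine replicate 2. Ratios between genes of unlike length can carry it. TPM keep no read numbers, and the depth behind each value is unknown.

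Entry into mitosis is triggered when CDK1 binds cyclin B and the inhibitory phosphates that WEE1 and PKMYT1 place on it are removed by CDC25 phosphatases. Polo-like and Aurora kinases then build the spindle, the spindle assembly checkpoint holds the anaphase-promoting complex in check until each chromosome is attached, and the freed complex, activated by CDC20, marks cyclin B and securin (PTTG1) for destruction. Most of these genes are transcribed in the late part of the cell cycle, when MYBL2 and FOXM1 act with the MuvB complex on the cell cycle genes homology region (CHR) and the factor NF-Y acts on CCAAT boxes, whereas E2F sites serve genes that come on earlier. In resting cells the same elements hold the genes silent.

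Promoter sequences are shown for 7 of the genes because they carry these elements near the start site, and because they come from genes that fell strongly (CDK1, PLK1, CDC20, MYBL2), less strongly (CCNB1, CCNB2) or that were not called changed (ESPL1). Each is the 120 bases just before the RefSeq start on GRCh38.p14, read on the plus strand, which is the strand of each gene: CDK1 (chr10:60778211-60778330), CCNB2 (chr15:59105026-59105145), CCNB1 (chr5:69167030-69167149), PLK1 (chr16:23678769-23678888), CDC20 (chr1:43358861-43358980), MYBL2 (chr20:43666994-43667113), ESPL1 (chr12:53268179-53268298). Capitals mark the CHR motif TTTGAA, the NF-Y box CCAAT and E2F-type sites, which were searched in a first form as TTCCCGC, in another form as TTGGCGC and in the last form as TTGGCGG. Every motif was searched on both strands, and an NF-Y box on the other strand reads ATTGG.
CDK1: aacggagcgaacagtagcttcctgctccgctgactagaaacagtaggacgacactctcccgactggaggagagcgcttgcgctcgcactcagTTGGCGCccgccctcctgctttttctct
CCNB2: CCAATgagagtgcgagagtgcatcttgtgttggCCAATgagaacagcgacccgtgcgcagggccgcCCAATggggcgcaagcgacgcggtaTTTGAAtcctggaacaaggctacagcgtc
CCNB1: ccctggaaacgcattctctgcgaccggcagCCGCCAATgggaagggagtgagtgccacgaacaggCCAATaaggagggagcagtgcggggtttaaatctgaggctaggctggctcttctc
PLK1: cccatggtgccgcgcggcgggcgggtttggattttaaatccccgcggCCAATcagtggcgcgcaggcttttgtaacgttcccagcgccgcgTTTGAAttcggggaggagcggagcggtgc
CDC20: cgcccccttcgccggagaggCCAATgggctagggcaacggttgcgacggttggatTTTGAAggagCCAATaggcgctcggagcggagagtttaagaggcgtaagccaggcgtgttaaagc
MYBL2: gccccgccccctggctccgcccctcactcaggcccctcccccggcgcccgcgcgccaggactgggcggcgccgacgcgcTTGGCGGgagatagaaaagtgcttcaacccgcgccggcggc
ESPL1: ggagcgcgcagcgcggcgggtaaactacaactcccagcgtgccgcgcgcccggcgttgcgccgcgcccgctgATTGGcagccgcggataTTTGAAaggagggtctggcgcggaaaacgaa
In CCNB2 and PLK1 the CHR motif began at position -29 and in CDC20 at position -65, counted from -1 for the base before the start, each with at least 1 CCAAT box upstream of it. CCNB1 had CCAAT boxes at positions -87 and -55 and no TTTGAA in its 300 bases, and the first of these boxes overlapped a TTGGCGG site on the other strand that began at position -90. MYBL2 held a single E2F-type site at position -41. At the first of the 2 starts listed for CDK1, the E2F-type site at position -28 lay in the printed stretch, with TTTGAA at position -161 and CCAAT at position -150 upstream of it. ESPL1 held TTTGAA at position -31 and an NF-Y box at position -48, the same kinds of match as in CCNB2 and PLK1. Over all 35116 promoters of 300 bases in the table, 15.2% held TTTGAA, 34.6% CCAAT and 12.1% an E2F-type site. The rarer CHR variant TTCGAA was in 1.45% of them. The dioxin response element CACGCNA, which the aryl hydrocarbon receptor binds, was in 5.51% of them. Among the members with a promoter it was found in MKI67, at position -167. The study searched longer promoters for this element and lists putative sites for the member CDK1. Promoters were at hand for 31 of the 40 genes (77.5%), which is under the 80% needed for a share over the whole group, and no such share is given. The promoters of BIRC5, BUB3, WEE1, FOXM1, AURKA, UBE2C, PKMYT1, TTK and PBK were not used here. A match of letters is a description and not evidence of binding.

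Before the results, the libraries were checked. Of the mesenchymal and progenitor markers, VIM was above 4430 TPM, FN1 above 2816 TPM, and CD44, CHI3L1 and SPARC above 308 TPM in every library, while NES lay between 12.29 and 21.02 TPM. Of these 6 markers 4 fell with rutaecarpine, FN1 by 0.89, VIM by 0.63, SPARC by 0.63 and NES by 0.53 on the log2 scale (adjusted p = 0.00972, 0.00894, 0.0155 and 0.0491), and their part in the results on the mitotic genes was not tested. Of the 6 neural and glial markers, GFAP lay between 3.48 and 5.41 TPM and OLIG2 between 1.48 and 4.11 TPM. SOX2 and S100B did not exceed 0.25 TPM and AQP4 was listed at 0, so the glial label rested on few of its defining markers. OLIG2 was called higher with rutaecarpine (log2 fold change 0.83, adjusted p = 0.0262). ALDH1L1 was too low to be tested, with 1.13, 1.38 and 0.68 TPM in the controls and 0.44, 0.54 and 0.83 TPM with rutaecarpine. Of the 6 markers of blood and endothelial cells, PTPRC, CD3E and CDH5 did not exceed 0.07 TPM and CD14 did not exceed 0.54 TPM. PECAM1 was too low to be tested, with 0.71, 0.54 and 0.65 TPM in the controls and 1.29, 0.89 and 1.33 TPM with rutaecarpine, higher in every treated library. CD68, which many cell lines express, held 451.90, 455.08 and 510.62 TPM in the controls and fell to 356.73, 351.62 and 318.56 TPM (log2 fold change -0.46, adjusted p = 0.0178). Of the 4 epithelial markers, EPCAM and CDH1 did not exceed 0.86 TPM and KRT18 did not exceed 1.19 TPM. KRT8 lay between 7.94 and 12.65 TPM and was not called. CYP1B1, the classical target of the aryl hydrocarbon receptor, held 84.67, 82.42 and 42.80 TPM in the controls and 410.60, 335.45 and 422.88 TPM with rutaecarpine, in the direction of the labels. Control replicate 3 stood apart. Its median log2(TPM + 1) over the genes tested was 3.56, against 3.97 and 3.95 in the other controls and 3.81 to 4.00 in the rutaecarpine libraries, and limma gave it a weight of 0.121, where the other libraries had weights of 0.611 to 2.49. Counts are therefore also given without it, and so are the values of the members called only without it.

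Most of the mitotic genes were lower in rutaecarpine-treated cells. Their summed level was 2511.7, 2519.8 and 2436.8 TPM in the 3 controls and 1432.0, 1446.8 and 1499.6 TPM in the 3 rutaecarpine libraries, or 2490 ± 45.7 against 1460 ± 35.5 TPM (mean ± SD, n = 3 each), which is 58.6% of control. The libraries of a group lay close together and the groups did not overlap. With limma on log2(TPM + 1) and Benjamini-Hochberg adjustment over all genes tested, 31 of the 40 genes fell at an adjusted p of at most 0.05, 0 rose and 9 were not called. Over all genes tested, 4.68% were called lower and 4.6% higher by the same rule. At an unadjusted p under 0.05, 35 of the 40 were lower and 0 higher. Of the 31, 14 also passed a log2 fold change of -1, a halving on this scale, against a background of 1.5%. The median log2 fold change of the 40 was -0.89, beside 0.08 over all genes tested. In 33 of the 40, every rutaecarpine library lay below every control library, which held for 14.0% of all genes tested, while 7 had overlapping groups (the reverse order held for 0 of the 40 and for 19.3% of all genes). RNA was taken from whole cultures, so fewer cells in the mitotic part of the cycle and less of these RNAs per cell cannot be told apart.

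**Figure D1:**
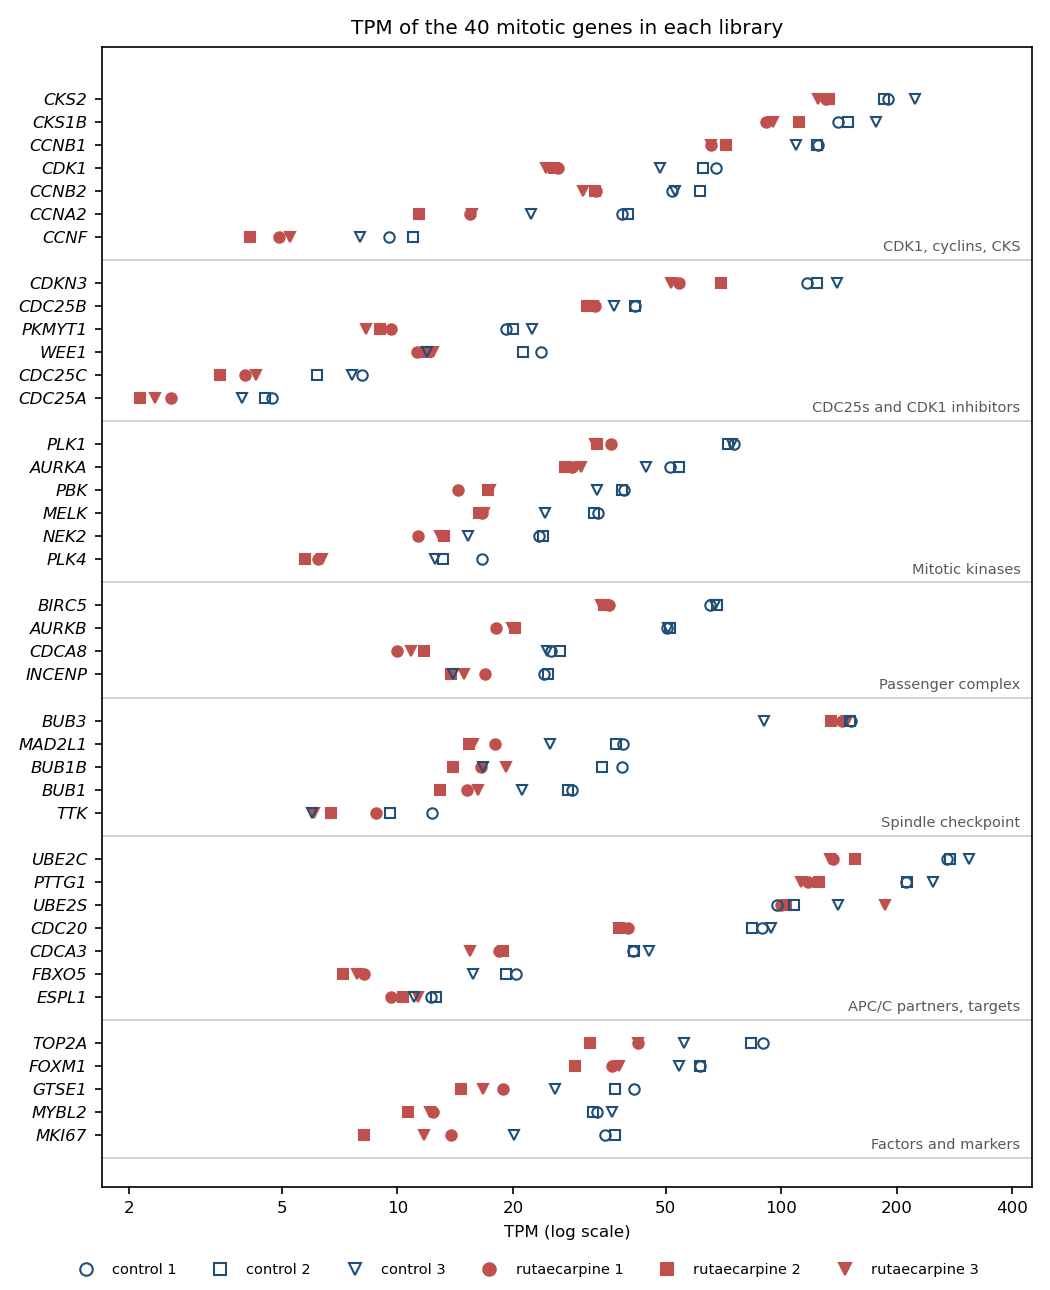
TPM (log scale) of each of the 40 mitotic genes in the 3 control libraries (open blue) and the 3 rutaecarpine libraries (filled red), grouped by role and ordered by control mean, with the replicate number given by the marker shape. In 33 genes all red markers lie to the left of all blue ones, and the open triangle of control replicate 3 is the outlying control in genes such as BUB1B, WEE1, INCENP and BUB3.

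Leaving out control replicate 3 raised the count. Without it, 36 of the 40 genes were called lower and 0 higher, beside 10.3% called lower and 8.2% higher over all genes, and the median log2 fold change was -0.94 against -0.01 over all genes. Leaving out another library gave 20 (control replicate 1), 19 (control replicate 2), 20 (rutaecarpine replicate 1), 21 (rutaecarpine replicate 2) or 19 (rutaecarpine replicate 3) genes called lower. Of the 31 genes, 18 were called in each of these 6 fits, which held for 1.56% of all genes tested. Another 3 (CKS1B, CKS2 and FOXM1) were called in 3 to 5 of the fits, and for the remaining 10 the single fit that called them was the one without control replicate 3. These 10 were CCNA2, CCNF, CDC25A, CDC25C, MELK, BUB1, MAD2L1, GTSE1, MKI67 and TOP2A. With the replicate number as a block 16 of the 40 were called lower (1.34% of all genes), in a test against a change of 1.2-fold 18 were (1.88%), and at an adjusted p of at most 0.001 AURKB, CDC20, PLK1 and MYBL2 were (0.209%).

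CDK1, the cyclins and the CDK-binding subunits all fell. All 7 of CDK1, the cyclins CCNA2, CCNB1, CCNB2 and CCNF and the small CDK-binding subunits CKS1B and CKS2 were called lower, with log2 fold changes from -1.18 to -0.61 and a median of -0.81, and the groups overlapped in none of them. CDK1 (chr10:60778331-60794852, plus strand, GENCODE release 29), the kinase that starts mitosis, held 67.61, 62.59 and 48.31 TPM in the controls and 26.22, 25.66 and 24.41 TPM with rutaecarpine. Its rutaecarpine libraries agreed closely, and its lowest control was replicate 3. The log2 fold change was -1.18 (SE 0.14, adjusted p = 0.00344), or -1.32 without control replicate 3. The study itself picked CDK1 from these libraries, and likewise the members FBXO5 and GTSE1, so the falls of these 3 genes here are not independent evidence. For CDK1 the paper also reports qPCR, with a change in the same direction as by RNA-Seq. It does not state whether that qPCR used the same RNA. Cyclin A2 (CCNA2), which serves both S phase and the approach to mitosis, held 38.43, 39.77 and 22.23 TPM in the controls and 15.48, 11.39 and 15.68 TPM with rutaecarpine. It fell by 1.15 on the log2 scale (adjusted p = 0.031, and 0.117 at most with another library left out), or by 1.41 without control replicate 3, and again control replicate 3 was the lowest control. The B-type cyclins, which activate CDK1 at mitotic entry, fell less: CCNB1 from 119 ± 8.6 to 67.7 ± 3.43 TPM (log2 fold change -0.81) and CCNB2 from 55.4 ± 5.23 to 32.0 ± 1.38 TPM (log2 fold change -0.77). Within each library, CCNB1 amounted to 1.84, 1.98 and 2.26 times the level of CDK1 in the controls and 2.51, 2.79 and 2.69 times with rutaecarpine, so the cyclin B1 to CDK1 ratio was higher in every treated library, whereas the ratio of CCNB1 to CCNB2 (2.16 and 2.11 on average) and that of CCNA2 to CDK1 (0.555 and 0.559) overlapped between the groups. CKS1B and CKS2 kept 63.8% and 65.1% of their control means, the highest shares among the 31 genes called, and their levels in control replicate 3 (176.70 and 223.15 TPM) were the highest of the controls.

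The 6 enzymes that act on the phosphates of CDK1 had log2 fold changes from -1.11 to -0.30. With all libraries 4 were called lower and 2 were not (4.68% of all genes were called lower). Without control replicate 3 all 6 were called lower (10.3% of all genes). CDC25A and CDC25C, the phosphatases that activate CDKs, fell to 53.4% and 53.6% of control (log2 fold changes -0.69 and -0.75, adjusted p = 0.0431 and 0.0381). CDC25B, which acts first at the centrosome, held 41.50, 41.53 and 36.74 TPM in the controls and 32.76, 31.13 and 32.37 TPM with rutaecarpine, a log2 fold change of -0.30 (95% confidence interval -0.54 to -0.07) that was not called (adjusted p = 0.111), although the groups did not overlap. Without control replicate 3 it was called, at -0.36 (adjusted p = 0.0203). CDC25B was therefore 8.81 to 9.35 times as abundant as CDC25A in the controls and 12.7 to 14.6 times with rutaecarpine. PKMYT1, the membrane-bound kinase that inhibits CDK1, held 19.15, 19.97 and 22.44 TPM in the controls and 9.63, 9.02 and 8.29 TPM with rutaecarpine (log2 fold change -1.11, SE 0.13, adjusted p = 0.00354). Its neighbour PAQR4, which overlaps it by 4245 bp on the other strand, also fell by 1.11 on the log2 scale (adjusted p = 0.00166), and since it is not stated that reads were counted by strand, the reads of these genes may not be fully separated. WEE1, the nuclear kinase of the same function, held 23.68, 21.20 and 11.95 TPM in the controls and 11.23, 11.87 and 12.38 TPM with rutaecarpine. The first 2 controls lay well above the treated libraries and control replicate 3 lay among them, so the log2 fold change of -0.58 was not called (adjusted p = 0.204), while without that library it was -0.87 (adjusted p = 0.00226). CDKN3, a phosphatase that removes the activating phosphate of CDKs, held 116.77, 123.63 and 139.55 TPM in the controls and 54.19, 69.84 and 51.50 TPM with rutaecarpine (log2 fold change -1.11, adjusted p = 0.00402), with no overlap.

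Of 6 further mitotic kinases, apart from those given with CDK1, the passenger complex and the checkpoint, 5 were called lower. PLK1, which acts at centrosomes, kinetochores and the midbody, was among the most even measurements, with 75.34, 72.78 and 74.47 TPM in the controls and 36.01, 33.14 and 32.72 TPM with rutaecarpine. Its log2 fold change was -1.11 (SE 0.09, adjusted p = 0.000755) and ranged from -1.15 to -1.08 with any 1 library left out. PLK4, which starts centriole duplication, fell from 16.66, 13.17 and 12.56 to 6.21, 5.73 and 6.38 TPM (log2 fold change -1.08, adjusted p = 0.00729). PBK, a kinase of the mitotic cell also called TOPK, held 38.88, 38.51 and 33.15 TPM in the controls and 14.39, 17.24 and 17.45 TPM with rutaecarpine (log2 fold change -1.13, adjusted p = 0.00284). In both genes the highest treated library stayed below the lowest control. ESCO2, which overlaps PBK by 3021 bp on the other strand, had a log2 fold change of -0.96. AURKA, the Aurora kinase of the spindle poles, and MELK fell to 57.4% and 55.2% of control (log2 fold changes -0.78 and -0.81). NEK2, which separates the centrosomes, held 23.32, 23.97 and 15.26 TPM in the controls and 11.32, 13.24 and 12.88 TPM with rutaecarpine, and its log2 fold change of -0.67 (95% confidence interval -1.13 to -0.22) was not called (adjusted p = 0.0795), but was called without control replicate 3 (-0.87, adjusted p = 0.00234).

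The chromosomal passenger complex, which corrects faulty attachments and steers cytokinesis, is made of the kinase AURKB, the scaffold INCENP, survivin (BIRC5) and borealin (CDCA8). AURKB had the lowest adjusted p of the 40 genes. It held 50.45, 51.20 and 50.71 TPM in the controls and 18.02, 20.22 and 19.92 TPM with rutaecarpine, a log2 fold change of -1.35 (SE 0.10, adjusted p = 0.00054) that was the same without control replicate 3. CDCA8 fell from 25.08, 26.49 and 24.60 to 10.00, 11.72 and 10.82 TPM (log2 fold change -1.16, adjusted p = 0.00191) and BIRC5 from 66.8 ± 1.49 to 34.6 ± 0.881 TPM (log2 fold change -0.93, adjusted p = 0.00122). INCENP held 24.03, 24.71 and 13.95 TPM in the controls and 16.87, 13.79 and 14.95 TPM with rutaecarpine. Here control replicate 3 lay among the treated libraries, and the log2 fold change of -0.40 (95% confidence interval -0.93 to 0.14) was not called (adjusted p = 0.339). Without that library it was -0.65 (adjusted p = 0.00883). The ratio of AURKB to INCENP within a library was 2.10, 2.07 and 3.64 in the controls and 1.07, 1.47 and 1.33 with rutaecarpine, and that of AURKB to AURKA was 0.984, 0.945 and 1.14 against 0.631, 0.740 and 0.664. AURKB thus made up a smaller part of both pairs in all 3 treated libraries.

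The spindle assembly checkpoint genes gave few calls. Of 5 genes, MAD2L1 and BUB1 were called lower and BUB1B, TTK and BUB3 were not, and the median log2 fold change was -0.74. With all libraries none passed a log2 fold change of -1, although MAD2L1 kept 48.7% of its control mean in TPM. Without control replicate 3, MAD2L1 was at -1.17 (adjusted p = 0.000518). MAD2L1, the protein that sequesters CDC20, fell from 33.6 ± 7.51 to 16.4 ± 1.36 TPM (log2 fold change -0.97, adjusted p = 0.0191), and BUB1, a kinase that recruits the other checkpoint proteins to kinetochores, from 25.8 ± 4.10 to 14.8 ± 1.7 TPM (log2 fold change -0.76, adjusted p = 0.0294). For BUB1B, which encodes BUBR1, the controls held 38.52, 34.13 and 16.73 TPM and the rutaecarpine libraries 16.47, 14.00 and 19.18 TPM. Its control replicate 3 was 1.07 log2 units below the mean of the other controls, the widest such gap among the 40 genes. The log2 fold change was -0.74 (adjusted p = 0.195) with that library and -1.10 (adjusted p = 0.00239) without it. TTK, the kinase also known as MPS1, held 12.30, 9.56 and 5.99 TPM against 8.78, 6.72 and 6.08 TPM, and its groups overlapped (log2 fold change -0.29, 95% confidence interval -0.92 to 0.33). It was not called in any fit without 1 library. BUB3, the adaptor that carries BUB1 and BUBR1 to kinetochores, held 152.02, 150.85 and 90.42 TPM in the controls and 143.93, 134.76 and 148.24 TPM with rutaecarpine. Apart from control replicate 3 these values lay close together, and the log2 fold change of 0.16 (95% confidence interval -0.32 to 0.63) turned to -0.09 without that library. BUB3 ranked 5 of the 40 genes by mean level in the controls and 1 with rutaecarpine, level with UBE2C. MAD2L1 was 0.246 to 0.276 times as abundant as BUB3 in the controls and 0.106 to 0.125 times with rutaecarpine.

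Among the 7 genes that work with the anaphase-promoting complex or are destroyed by it, 5 fell and 2 were not called. CDC20, the activator that the checkpoint holds, held 89.04, 84.11 and 94.11 TPM in the controls and 40, 37.82 and 37.82 TPM with rutaecarpine (log2 fold change -1.19, SE 0.09, adjusted p = 0.000579). The inhibitor of the complex, FBXO5 (EMI1), fell alongside, from 20.42, 19.16 and 15.71 to 8.18, 7.2 and 7.85 TPM (log2 fold change -1.15, adjusted p = 0.00494), and the ratio of CDC20 to FBXO5 overlapped between the groups (4.91 and 4.99 on average). CDCA3, a mitotic entry factor that the complex degrades, held 41.13, 41.43 and 45.19 TPM against 18.44, 18.90 and 15.50 TPM (log2 fold change -1.23, adjusted p = 0.00149). In all 3 genes the lowest control was well above the highest treated library. UBE2C, the ubiquitin-conjugating enzyme that starts ubiquitin chains for the complex, had the highest mean level of the 40 genes in the controls, at 285 ± 20.4 TPM, and fell to 142 ± 11.7 TPM (log2 fold change -1.0, adjusted p = 0.00143). Securin (PTTG1), the inhibitor of separase, fell from 224 ± 20.9 to 118 ± 6.44 TPM (log2 fold change -0.91, adjusted p = 0.00189). Separase itself (ESPL1), the protease that opens cohesin, held 12.20, 12.61 and 11.04 TPM in the controls and 9.64, 10.32 and 11.34 TPM with rutaecarpine. These ranges overlapped, and the log2 fold change was -0.18 (95% confidence interval -0.50 to 0.14, adjusted p = 0.461). Securin was 17.3, 16.9 and 22.5 times as abundant as separase in the controls and 12.2, 12.1 and 9.91 times with rutaecarpine. UBE2S, which extends the chains that UBE2C starts, held 97.30, 107.65 and 140.28 TPM in the controls and 100.11, 102.72 and 186.16 TPM with rutaecarpine. The spread came from replicate 3 of either group, the log2 fold change was 0.13 (95% confidence interval -0.48 to 0.73), and it was -0.16 without rutaecarpine replicate 3. UBE2S (chr19:55399745-55407777, minus strand) overlaps RPL28, a ribosomal protein gene with a mean of 1390 TPM, by 3506 bp on the other strand, and the part of this overlap in its values was not tested.

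Both transcription factors and all 3 proliferation markers fell. MYBL2 (B-MYB), the MuvB partner that opens the mitotic program, held 33.14, 32.24 and 36.20 TPM in the controls and 12.35, 10.65 and 12.15 TPM with rutaecarpine. Its log2 fold change of -1.46 (SE 0.12, adjusted p = 0.000874) was the lowest of the 40 with all libraries, and its mean level fell to 34.6% of control. Without control replicate 3 MYBL2 was at -1.41 and MKI67 was lower, at -1.61. FOXM1, which acts after it, fell to 58.2% of control (log2 fold change -0.77, adjusted p = 0.012), so that MYBL2 amounted to 0.539, 0.524 and 0.668 of FOXM1 in the controls and to 0.340, 0.367 and 0.322 with rutaecarpine. MKI67, the source of the Ki-67 antigen that coats mitotic chromosomes, held 34.74, 36.79 and 20.17 TPM in the controls and 13.83, 8.20 and 11.76 TPM with rutaecarpine. All treated libraries lay below all controls, though control replicate 3 was again the lowest, and the log2 fold change was -1.35 (95% confidence interval -1.99 to -0.70, adjusted p = 0.0261) with it and -1.61 without it. TOP2A, the topoisomerase that untangles sister chromatids, and GTSE1, a microtubule-bound protein of G2 and mitosis, fell to 50.9% and 48.4% of control (log2 fold changes -0.94 and -0.98).

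**Figure D2:**
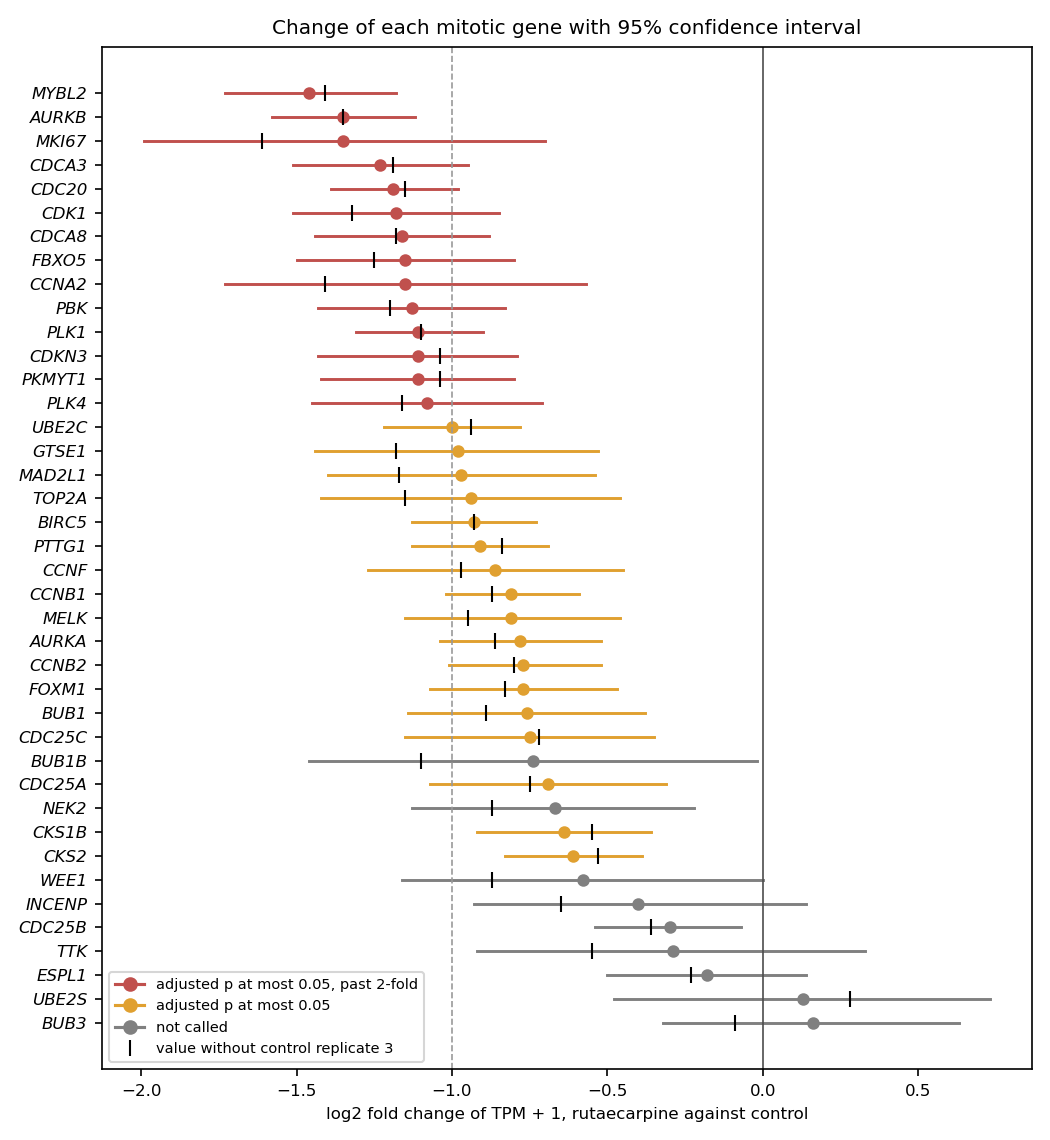
Log2 fold change of TPM + 1 with its 95% confidence interval for each of the 40 genes. Red marks an adjusted p of at most 0.05 with a log2 fold change past -1 (14 genes), and yellow the p alone (17 genes). Grey marks genes where the p did not pass (9 genes), and a black tick the value without control replicate 3. The genes run from MYBL2 at -1.46 to BUB3 at 0.16, and the tick lies left of the point by the most in BUB1B and WEE1, and in BUB3 on the other side of 0.

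The 9 genes not called were BUB1B, NEK2, WEE1, INCENP, CDC25B, TTK, ESPL1, UBE2S and BUB3. The first 5 of these were called lower without control replicate 3, which left TTK, ESPL1, UBE2S and BUB3. The gap between control replicate 3 and the other controls went with transcript length over the 40 genes, which share these libraries (Pearson's r = -0.64 with log2 length, given as a description). The median gap was 0.15 log2 units for the 10 genes under 2000 bp and -0.49 for the 12 genes over 3500 bp. Rutaecarpine replicate 2 leaned the same way against the other treated libraries, by less (r = -0.70, medians 0.10 and -0.16). After trends on transcript length and GC content were removed from each library, 35 of the 40 genes were called lower and 0 higher (10.9% called lower and 9.74% higher over all genes), with a median log2 fold change of -0.92. These 35 were the 31 and BUB1B, NEK2, WEE1 and CDC25B.

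**Figure D3:**
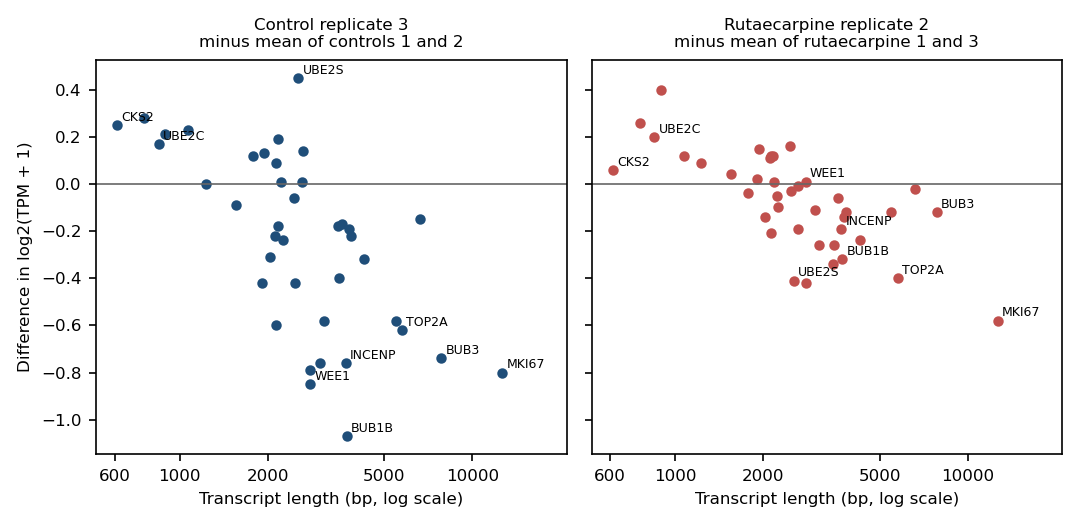
Difference in log2(TPM + 1) of each of the 40 genes against transcript length in bp (log scale), for control replicate 3 minus the mean of the other controls (left) and rutaecarpine replicate 2 minus the mean of the other treated libraries (right). On the left the values run from 0.45 for UBE2S to -1.07 for BUB1B and fall with length, and on the right they run from 0.40 to -0.58 for MKI67.

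Other parts of the mitotic machinery gave other counts. Of 48 other genes of mitotic control, 3 were called lower and 1 higher, a share of 6.25% lower that was near the background of 4.68%, with a median log2 fold change of -0.07. Without control replicate 3, 15 of the 48 were called lower and 3 higher, against 10.3% and 8.2% of all genes. Library weights gave 16 lower and 4 higher (14.1% and 13.5% of all genes). With length and GC trends removed there were 14 lower and 3 higher (10.9% and 9.74%). Without any other 1 library the count lower was 2. Among the 48, the 14 core subunits of the anaphase-promoting complex itself, whose partners CDC20 and UBE2C fell, had 0 called in either direction by limma. At an unadjusted p under 0.05, 1 was lower and 0 higher. Their log2 fold changes ran from -0.35 to 0.30, with a median of 0.11. With library weights 2 of the 14 were called lower, and with length and GC trends removed 1 was. Of the 48 genes, TPX2 and PLK2 passed a log2 fold change of -1. TPX2, which activates AURKA at the spindle, was at -1.01 (adjusted p = 0.00341). PLK2, a polo-like kinase of the earlier cell cycle that the study also picked from these libraries, was at -1.12 (adjusted p = 0.00582). The 1 gene called higher, named here after its value was seen, was the polo-like kinase PLK3, at 0.86 (adjusted p = 0.00606).

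Many genes of the spindle and kinetochore and of DNA replication fell. Of 40 spindle and kinetochore genes 23 were called lower and 0 higher (33 lower and 0 higher at an unadjusted p under 0.05), with a median of -0.85. Of 41 replication genes also 23 were called lower and 0 higher (38 and 0 unadjusted), again with a median of -0.85. Over all genes tested, 4.68% were called lower and 4.6% higher. Without control replicate 3 the counts lower were 39 and 38 (10.3% of all genes), whereas without any other 1 library they were 13 to 15 and 15 to 17. With the replicate number as a block they were 10 and 11 (1.34% of all genes). With all libraries, 12 and 11 of the genes of these lists were called past a log2 fold change of -1 (1.5% of all genes). In the first list the lowest were SPC24, a subunit of the NDC80 complex that grips microtubules (-1.62), KIF20A, a kinesin of cytokinesis (-1.51), KIF18B (-1.38), KIF15 (-1.37), SPC25 (-1.35) and CENPM (-1.32). In the second they were thymidine kinase TK1 (-1.51), thymidylate synthase TYMS (-1.46), GINS2 (-1.43) and MCM3 (-1.27) of the replicative helicase, ORC1 of the origin recognition complex (-1.21) and MCM5 (-1.16).

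With all libraries, calls went in both directions among the regulators of G1. In the list of E2F and MuvB genes the calls were only lower. Of 15 G1 cyclins, their kinases and CDK inhibitors, 10 were tested, 2 were called lower (CDK2 and CDKN2D) and 1 higher (CDKN1A), or 20% lower against the background of 4.68%. Without control replicate 3 the count lower was 4 (10.3% of all genes), and without any other 1 library it was 0 or 1. CDKN1A, the CDK inhibitor p21, held 111.14, 121.12 and 116.17 TPM in the controls and 146.05, 148.6 and 160.01 TPM with rutaecarpine (log2 fold change 0.38, adjusted p = 0.028), with no overlap. CDKN2A and CDKN2B, the inhibitors of the cyclin D kinases, did not exceed 0.06 TPM in any library. A further list held 16 genes, which were E2F factors, pocket proteins and subunits of the MuvB complex. Of these 16, 4 were called lower and 0 higher (6 and 1 at an unadjusted p under 0.05), which is 25.0% lower, with a median of 0.10. Without control replicate 3 there were 6 lower and 1 higher (10.3% and 8.2% of all genes), and without any other 1 library 1 or 2 lower. The 4 were E2F1 (-1.05), E2F2, E2F8 (-1.29) and TFDP1. E2F7, a repressor among the E2F factors, had the highest log2 fold change of the list, 1.49, which was not called (adjusted p = 0.0551) but was called without control replicate 3 at 1.04 (adjusted p = 0.00564). CDKN1A, CDK2, CDKN2D, E2F2, E2F7, TFDP1 and the G1 cyclins are named here after their values were seen. Of the G1 cyclins tested, CCND1 (0.16), CCND3 (-0.36), CCNE1 (-0.28) and CCNE2 (-1.14, adjusted p = 0.0762) were not called, and CCNE2 was called without control replicate 3 (-1.5, adjusted p = 0.00202).

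**Figure D4:**
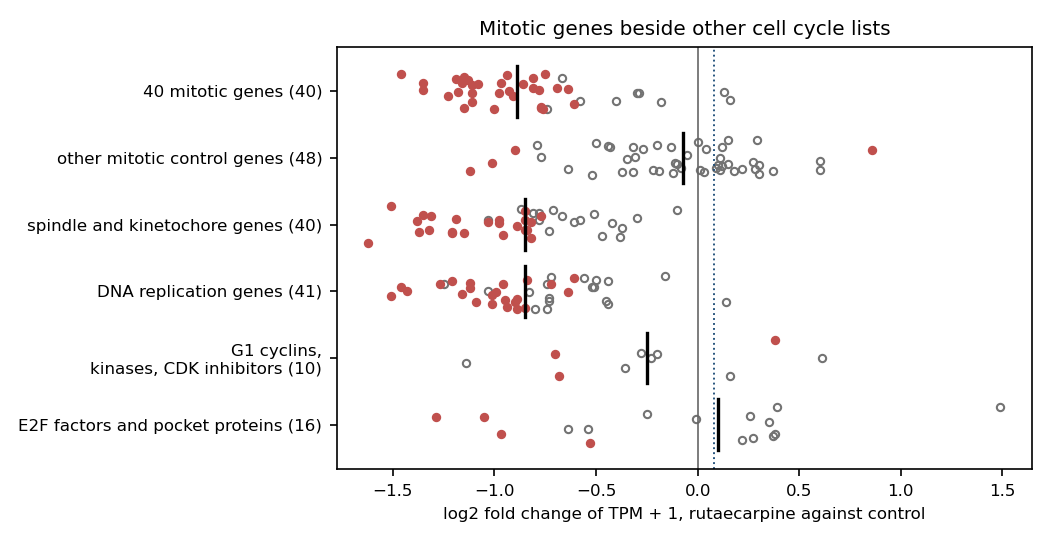
Log2 fold change of TPM + 1 of every tested gene in the 40 mitotic genes and in 5 further cell cycle lists (number tested in parentheses), filled red where the adjusted p was at most 0.05, with a black bar at each list's median and a dotted line at the median of all genes tested (0.08). The mitotic, spindle and replication lists have medians of -0.89, -0.85 and -0.85, and the other mitotic control genes and E2F lists have medians of -0.07 and 0.10.

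Near-identical copies could blur some of these values, because RSEM shares out the reads that fit more than 1 gene. Of 30 copies of members found by name, 21 were listed at 0 in every library and 3 reached 1 TPM. These were CKS1BP1 (up to 8.99 TPM, against 91.26 TPM or more for CKS1B), UBE2CP5 (up to 4.89 TPM) and UBE2CP2 (up to 1.68 TPM). The other overlaps with a gene on the opposite strand were those of CCNA2 with EXOSC9, CDC25C with FAM53C, CDCA3 with GNB3 and FOXM1 with ITFG2 and RHNO1, and these partners had log2 fold changes from -0.32 to 0.20 with none called. CCNF overlapped an unnamed gene with a mean of 1.02 TPM.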

How the data were processed

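RNA-Seq was performed on 3 control and 3 rutaecarpine libraries of U87 cells. The authors quantified genes with RSEM, and the deposited values are TPM, 1 column per library. All 6 columns were matched to a sample. The submitters' processing notes name GRCh38.p13, RSEM, DESeq2 and edgeR. The aligner, the annotation release and whether reads were counted by strand are not given in the sources used here. TPM keep no read numbers, so count tests were not run and counting error cannot be given.

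Genes reaching a TPM of 1 in 3 or more libraries were kept. Groups were compared on log2(TPM + 1) with limma 3.58.1 in R 4.3.3 (empirical Bayes with a mean-variance trend, two-sided), with Benjamini-Hochberg adjustment over the 14377 genes tested. Fold changes on this scale understate the change of weakly expressed genes. An exact permutation test of 3 libraries against 3 cannot go below p = 0.1 and was not used. The scripts were tested on simulated data. Tables and figures were made in Python 3.11.15. Gene positions, lengths and GC content came from GENCODE release 29 on GRCh38, and promoters from RefSeq on GRCh38.p14. Of the comparison list genes, 5 lacked a name in the table and were named from the reference. A planned comparison of protein sequences was not run.

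All 40 members are named. Members past both thresholds, and members whose groups overlap, are given in every library. From the comparison lists, up to 6 genes past both thresholds are named. The members and lists were chosen with earlier results of these data known. The alternatives were median centring, a pseudocount of 0.1, no filter, a filter requiring a TPM of 1 in all libraries, no trend, library weights, the replicate number as a block, leaving out each library, a test against 1.2-fold and an adjusted p of at most 0.001. Removal of trends on length and GC content (splines with df of 5, 14267 genes), alone, with the block or without control replicate 3, and centring without control replicate 3, were added after the data were seen.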

Additional observations from a re-analysis of the deposited data

How the results depend on the processing

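Between libraries of the same number, deviations from the group means had correlations of 0.116, -0.266 and -0.215. These values cannot settle whether the numbers pair the samples, since length trends of control replicate 3 and rutaecarpine replicate 2 enter them. With the replicate number as a block, 16 members were called lower in place of 31. With this block and length and GC trends removed, 33 members were lower and 0 higher. The 5 comparison lists together had 23 genes lower and 0 higher with the block alone, in place of 55 and 2. A test against 1.2-fold left 18 members lower and 1 list gene higher. At an adjusted p of at most 0.001 there were 4 members lower, 4 of them past a log2 fold change of -1, with 2 list genes lower and 0 higher. Leaving out 1 library gave 19 to 36 members lower, 32 to 102 list genes lower and 1 to 6 higher. List genes lower and higher were 85 and 4 with centring, 106 and 7 with library weights, 101 and 6 with length and GC trends removed, 91 and 5 with these and the block, 108 and 6 with these and without control replicate 3, and 103 and 7 with centring and without control replicate 3. Without the mean-variance trend 1 list gene was higher. Centring moved the median log2 fold change of the members to -0.98. The sign of BUB3 turned, to -0.09 without control replicate 3, -0.05 with library weights, with length and GC trends removed (alone and with the block) and with centring without control replicate 3, and -0.02 with trends removed and without control replicate 3. That of UBE2S turned to -0.16 without rutaecarpine replicate 3. With 1 library left out, BUB3 ranged from -0.09 to 0.28 and UBE2S from -0.16 to 0.28. No other member changed sign. In the bases before the start alone, 13.3% of promoters held TTTGAA, 1.19% TTCGAA, 14.3% either (16.4% in 300 bases), 32.0% CCAAT, 10.3% an E2F-type site and 4.52% CACGCNA. Over all genes, 673 were lower and 662 higher, against 192 and 236 with the block, 1487 and 1179 without control replicate 3, 2027 and 1935 with weights and 439 and 453 without a filter. The cause of these differences was not tested.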
